A study of Rattus norvegicus with 4 samples.

Results

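The aquaporins are a family of membrane channels that let water, and in some members glycerol, cross cell membranes. The genes were taken by symbol from the full deposited table of inner medulla RNA: Aqp1, Aqp2, Aqp3, Aqp4, Aqp5, Aqp6, Aqp7, Aqp8, Aqp9 and Aqp11, 10 genes of 35374 loci, each on 1 row of its own. The samples were kidney inner medulla of female and male Sprague Dawley rats, bought at 13 to 15 weeks of age and put on a diet of 0.49% NaCl at an age of 14 to 16 weeks and kept on it for 2 weeks, with no other treatment. Both sexes had the same diet, and there was no group on another salt intake. Each sex had 2 libraries, each made from RNA pooled from 4 rats, so single animals cannot be seen. The deposited comparison sets female against male tissue and asks where expression differs by sex.

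The libraries held 34552171 to 41945343 read pairs, of which 89.6 to 90.3% mapped. Expression is given as FPKM, which is fragments per kilobase of transcript and per unit of library depth, with 1 value per sex in which the authors joined both pools. No spread between pools, SD or interval can therefore be set on any value, and each difference is read against the p and q of the authors' deposited table. There q is adjusted over 20307 tested loci, and a locus is called where q is under 0.05. In bulk RNA of this kind, fewer cells of a type and less RNA per cell cannot be told apart.

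In the kidney, water leaves the collecting duct through principal cells. Vasopressin, acting through its V2 receptor and cAMP, moves Aqp2 from vesicles into the apical membrane and over longer times raises Aqp2 transcription, while Aqp3 and Aqp4 form the exit on the basolateral side. Aqp1 lines the proximal tubule, the thin descending limb and the descending vasa recta, and is abundant in red blood cells. Aqp3, Aqp7 and Aqp9 also conduct glycerol and are called aquaglyceroporins. The other members have narrower sites: Aqp5 is best known from glands, Aqp6 from vesicles inside intercalated cells, Aqp7 from fat cells and the straight part of the proximal tubule, Aqp8 from digestive organs, Aqp9 from liver and leukocytes, and Aqp11 from the endoplasmic reticulum of proximal tubule cells.

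Aqp2, Aqp5 and Aqp6 stand next to each other in the genome. The deposited table, in build rn5, lists Aqp2 at 115742311 to 115747347, Aqp5 at 115753740 to 115757278 and Aqp6 at 115763283 to 115766221, all within 23911 bases of a chromosome written as X. RefSeq places the same trio on chromosome 7 of assembly GRCr8, so the chromosome name in the deposited table is in doubt. The promoters are shown because these neighbours lay so far apart in level in this tissue: over both sexes the mean FPKM was 10078 for Aqp2, 1.51 for Aqp5 and 138 for Aqp6. Each is the 250 bases before the RefSeq start, 5′ to 3′ on the plus strand of GRCr8, at chr7:132590036-132590285 for Aqp2, chr7:132601278-132601527 for Aqp5 and chr7:132610819-132611068 for Aqp6. Capitals mark matches on either strand to 3 short motifs. The first is TGACG, a part of the cAMP response element through which that messenger acts on transcription. Another is GATAA, the core recognised by the zinc finger proteins Gata2 and Gata3 of the collecting duct. The last is TATAA, where the general transcription machinery can bind near a start.
Aqp2: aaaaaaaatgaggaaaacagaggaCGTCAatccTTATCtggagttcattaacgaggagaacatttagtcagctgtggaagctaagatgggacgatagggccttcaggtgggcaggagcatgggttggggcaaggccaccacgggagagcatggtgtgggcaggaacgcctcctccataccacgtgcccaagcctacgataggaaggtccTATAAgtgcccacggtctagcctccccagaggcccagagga
Aqp5: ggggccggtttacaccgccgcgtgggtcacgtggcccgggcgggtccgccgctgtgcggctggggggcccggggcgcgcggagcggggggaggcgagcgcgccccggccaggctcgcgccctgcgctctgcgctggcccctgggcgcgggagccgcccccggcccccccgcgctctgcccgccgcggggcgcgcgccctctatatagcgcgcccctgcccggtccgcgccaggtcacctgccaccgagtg
Aqp6: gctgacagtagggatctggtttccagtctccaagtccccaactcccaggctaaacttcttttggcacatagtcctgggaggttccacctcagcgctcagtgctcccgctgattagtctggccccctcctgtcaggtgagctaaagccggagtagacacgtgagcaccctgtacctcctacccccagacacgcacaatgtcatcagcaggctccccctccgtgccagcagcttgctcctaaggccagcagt
The Aqp2 window held all 3 motifs once, without overlap: the cAMP motif on the minus strand 226 to 222 bases before the start, the GATA core on the minus strand at 217 to 213, and the TATA element at 41 to 37. The Aqp5 and Aqp6 windows held none of the 3 exact runs. The Aqp5 window does hold the similar run tatata, which the search for TATAA did not count. Of 33469 RefSeq promoter windows of this length, 18.2% held the cAMP motif, 23.5% the GATA core and 24.0% the TATA element. A promoter was found in the RefSeq table for 9 of the 10 genes, with 2 windows for Aqp4. Of those 9 genes, Aqp2 alone had the cAMP motif, and Aqp2 and Aqp9 had the GATA core. The exact run TATAA was in Aqp1, Aqp2, Aqp3 and Aqp4 (in 1 of its windows). Aqp9, at the floor of the data, thus shares a motif with Aqp2. A match is a run of letters and not a measured binding site.

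Aqp2 was the most abundant aquaporin mRNA in both sexes. It stood at 8463 FPKM in females against 11693 FPKM in males. It ranked 4 among all loci by level in females and 1 in males, and made up 1.20% and 1.59% of the summed FPKM of all loci. On the FPKM scale the male value was 1.38-fold higher, a log2 ratio of female to male of -0.47. The locus was not called (p = 0.262, q = 0.923 in the authors' deposited table). Among 1060 tested loci with a mean of at least 100 FPKM and values above 0 in both sexes, 55 were at least as far apart between the sexes as Aqp2, 36 of them higher in males (Aqp2 included), and 27 of the 55 were called. The smallest called fold at that level was 1.48, above the 1.38 of Aqp2. Nearer to the level of Aqp2, among 112 tested loci with a mean of at least 1000 FPKM, 2 were called. The smallest called fold there was 1.63.

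The authors' test gave Aqp2 a smaller statistic for its difference than it gave most abundant loci. The deposited test statistic of Aqp2 was 1.67 per log2 unit of difference, against a median of 4.15 among tested loci with a mean of at least 100 FPKM. Of those loci, 23 (2.17%) had a lower value than Aqp2. Aqp1, Aqp3, Aqp4 and Aqp6 had 3.81, 3.56, 3.18 and 4.23, so a difference of given size counted for less at Aqp2 than at the other abundant members. The q of Aqp2 thus does not show that the sexes had the same level.

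**Figure D1:**
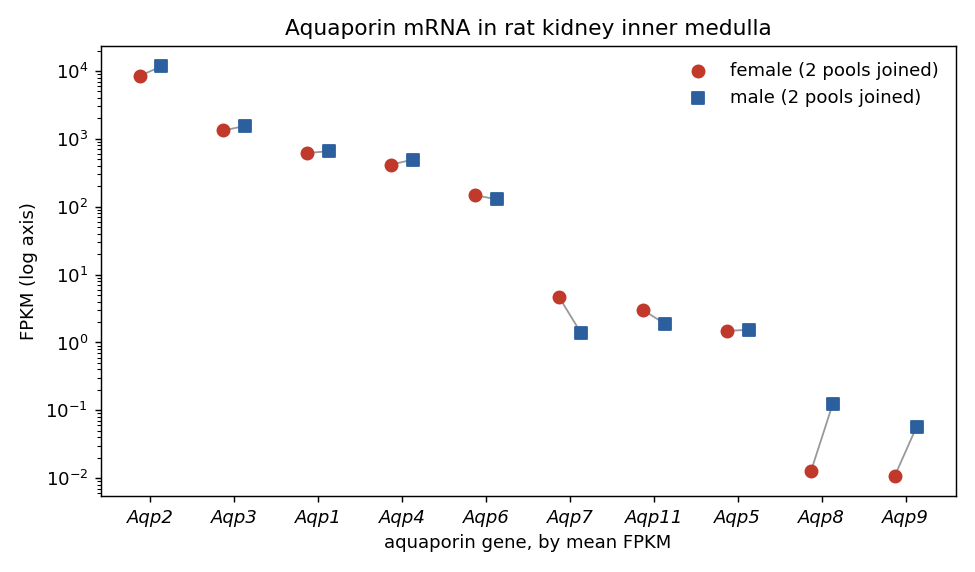
FPKM (log axis) of each of the 10 aquaporin genes, ordered by mean level, with 1 point per sex (circles female, squares male) and no error bars because both pools of a sex were joined. Aqp2 stands at 8463 and 11693 FPKM, Aqp7 is at 4.64 in females against 1.38 in males, and Aqp8 and Aqp9 lie under 0.2 FPKM in both sexes.

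The basolateral channels of the principal cell, like Aqp2, had the higher value in males. Aqp3 (chromosome 5, 61954829 to 61960349), which passes water and glycerol, was at 1332 FPKM in females against 1553 FPKM in males. The male value was 1.17-fold higher, a log2 ratio of -0.22, with p = 0.265 and q = 0.926 in the authors' deposited table. Aqp4 (chromosome 18, 6720758 to 6737507), a channel with high permeability to water, was at 418 FPKM in females against 496 FPKM in males. The male value was 1.19-fold higher, a log2 ratio of -0.25, with p = 0.240 and q = 0.912 in the authors' deposited table. Neither was called; among the 1063 tested loci with a mean of at least 100 FPKM, which hold 5 aquaporins, 2.54% were called and none of the 5. The ratio of Aqp3 to Aqp4 was nearly equal in the sexes, 3.18 in females and 3.13 in males, while that of Aqp2 to Aqp3 was 6.35 in females and 7.53 in males. These ratios carry no error of their own.

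Other markers of the principal cell lay on both sides of 0. None of 8 tested members of that list was called in either direction; 5 had the higher value in females and 3 in males, with a median log2 ratio of 0.19. Fxyd4, a regulator of the sodium pump, was at 4006 FPKM in females against 5915 FPKM in males (q = 0.105, authors' deposited table). Hsd11b2, which inactivates glucocorticoids in aldosterone target cells, was at 322 and 251 FPKM (q = 0.414, authors' deposited table). Aqp2, Aqp3 and Aqp4, all with the higher value in males, thus lay on the same side as Fxyd4 and on the other side from Hsd11b2.

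Aqp1 (chromosome 4, 150203460 to 150215641), the constitutive water channel of the descending limb and vasa recta, was at 618 FPKM in females against 660 FPKM in males. The male value was 1.07-fold higher, a log2 ratio of -0.09, and was not called (p = 0.601, q = 0.999 in the authors' deposited table). Several cell types carry this channel, and markers of these lay on both sides of its ratio. Of 5 tested thin limb markers, all had the higher value in females and 2 were called higher there, against 1.63% of all tested loci. Sptssb, a subunit of the enzyme that starts sphingolipid synthesis, was at 25.1 FPKM in females against 14.6 FPKM in males, and Fst, the activin-binding protein follistatin, at 38.02 and 23.8 (q = 0.00391 and 0.0320, authors' deposited table). Slc4a11, a membrane transporter, was at 164 and 155 FPKM and was not called. Of 10 tested endothelial and vasa recta markers, 1 was called in each direction and the median log2 ratio was 0.36. Plvap, a protein of fenestrated endothelium, was at 240 FPKM in females against 122 FPKM in males, and Vwf, von Willebrand factor, at 7.62 and 11.2 (q = 0.00391 and 0.0421, authors' deposited table). Slc14a1, the urea transporter of the descending vasa recta, where Aqp1 is known, was at 76.4 and 94.5 FPKM, and the endothelial cadherin Cdh5 at 7.801 and 7.37. Emcn, an endothelial sialomucin, was at 158 and 122 FPKM, and none of these 3 was called. None of 4 tested red blood cell genes was called, and the summed FPKM of the 6 in the table was 1024 in females and 768 in males. The locus of Hba1 and Hba2, which make the alpha chain of haemoglobin, was at 761 and 550 FPKM, and that of the beta chain genes Hbb and Hbb-b1 at 259 and 215. The part of these cells in the Aqp1 values was not tested.

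Aqp6 (115763283 to 115766221, given with its neighbours above), an intracellular channel of intercalated cells that also passes anions, was the only one of the 5 members averaging at least 100 FPKM with the higher value in females. It was at 148 FPKM in females against 128 FPKM in males, 1.15-fold apart with a log2 ratio of 0.20, and was not called (p = 0.219, q = 0.889 in the authors' deposited table). Of 9 tested intercalated cell markers, 8 had the higher value in females, with a median log2 ratio of 0.24. That median was close to the ratio of Aqp6, but so was the median of the principal cell list, 0.19. Slc4a1, the anion exchanger of acid-secreting cells, was at 208 FPKM in females against 184 FPKM in males, and the ammonia channel Rhcg at 195 and 163; neither was called. Kit, a receptor tyrosine kinase, was the one called, at 10.8 against 6.33 FPKM (q = 0.00391, authors' deposited table). Of all tested loci, 2.34% were called. The summed FPKM of the 11 listed genes was 980 in females and 882 in males. The part of intercalated cell number in the Aqp6 values was not tested.

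**Figure D2:**
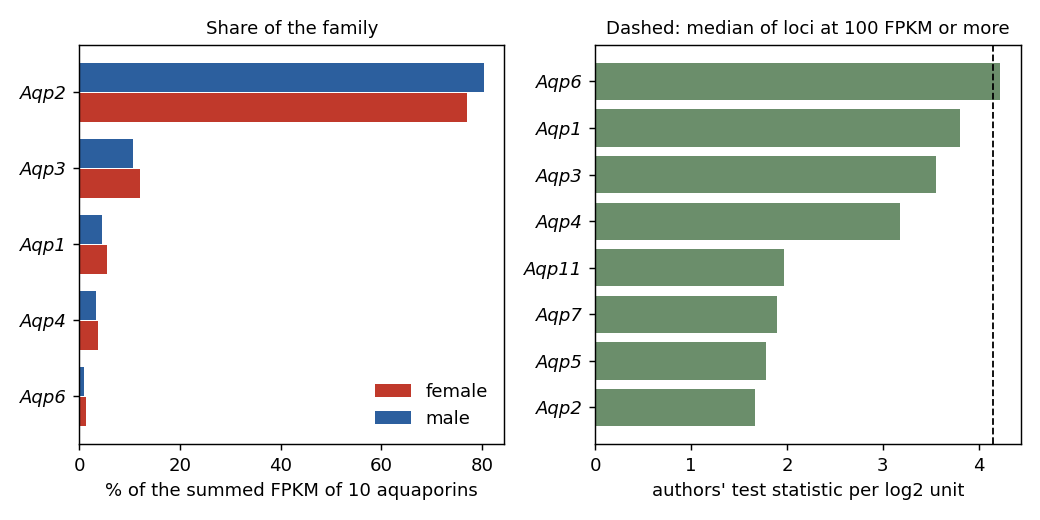
Left, share of each aquaporin with a mean of at least 100 FPKM in the summed FPKM of the 10 genes, in percent, by sex; right, the authors' test statistic per log2 unit of difference for the 8 tested aquaporins, with a dashed line at 4.15, the median of tested loci of at least 100 FPKM. Aqp2 holds 77.0% of the family in females and 80.4% in males and has the lowest statistic per unit, 1.67.

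The 10 genes summed to 10989 FPKM in females and 14536 FPKM in males, 1.56% and 1.97% of all FPKM. Aqp2 alone made up 77.0% of that sum in females and 80.4% in males, so the family's sum follows Aqp2. Aqp3 held 12.1% and 10.7%, Aqp1 5.63% and 4.54%, Aqp4 3.81% and 3.41%, and Aqp6 1.34% and 0.883%. The order of these 5 members was the same in both sexes, with Aqp2 first, then Aqp3, Aqp1, Aqp4 and Aqp6. Whether Aqp1 and Aqp4, 1.48-fold apart in females and 1.33-fold in males, differ beyond the spread of pools cannot be said from 1 value per sex.

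Aqp7 was the one aquaporin called between the sexes. The gene (chromosome 5, 61887756 to 61902549), a glycerol and water channel, lies 52279 bases from Aqp3 in the deposited table. It was at 4.64 FPKM in females against 1.38 FPKM in males. The female value was 3.36-fold higher, a log2 ratio of 1.75, with p = 5.00e-05, the smallest p in the authors' deposited table, and q = 0.00391. Many loci share that p and q, among them Plvap, Kit and Fbp1, so they do not set Aqp7 apart. Its neighbour Aqp3, more abundant by far, had the higher value in males and was not called. Of 8 aquaporins tested, 1 was called, and by the same rule 2.34% of all tested loci were called, 1.63% higher in females and 0.719% higher in males. Aqp7 was also the only member called at q under 0.01, where 1.55% of tested loci were called, at q under 0.1, with 3.4%, and with p adjusted again over loci averaging at least 1 FPKM, with 2.47%. A single call among 8 is no result about the family as a whole, and the median log2 ratio of the 8 was -0.07, against -0.0048 over all tested loci with values in both sexes. At the level of Aqp7, 1 to 5 FPKM in the mean, 2.59% of 6908 tested loci were called. Among the 6825 of them with values above 0 in both sexes, 153 were at least as far apart towards females as Aqp7, itself included. Of these 153, 39 were called. Among all 293 loci called higher in females with values above 0 in both sexes, 78 had a larger fold.

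Aqp7 was not alone in this direction among genes of the sites it is known from. All gene lists here were chosen with earlier results of these data known. Their shares of called genes are therefore a description and not independent support. Of 16 tested proximal tubule markers, 11 were called higher in females and none higher in males, against 1.63% and 0.719% of all tested loci. Their median log2 ratio was 1.29, against -0.0048 over all tested loci with values in both sexes. Their summed FPKM, over the 18 in the table, was 1184 in females and 271 in males, most of it from Kap, an androgen-regulated kidney protein, at 910 and 131 FPKM. The amino acid transporter Slc7a13, which like Aqp7 belongs to the straight proximal tubule, was at 101 FPKM in females against 46.3 FPKM in males. Fbp1, a gluconeogenic enzyme, was at 13.1 and 4.15 FPKM, and the anion transporter Slc22a8 at 1.43 and 0.456, folds of 3.16 and 3.13. The folds of the list were spread widely around that of Aqp7. The anion transporter Slc22a7 was 39.6-fold, the cytochrome Cyp2e1 7.46-fold and Cubn, a receptor for filtered proteins, 6.99-fold higher in females, while Miox, which breaks down inositol, was at 21.1 and 20.3 FPKM and Pck1, of gluconeogenesis, at 3.94 and 4.01, neither called. The 7 called genes named here had q = 0.00391 in the authors' deposited table. Slc5a2, the glucose transporter of the early proximal tubule, was under 0.3 FPKM in both sexes and not tested. None of the 18 was listed at 0.

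Fat cell markers were sparser. Of 4 tested adipocyte genes 1 was called, against 2.34% of all tested loci, and 2 had the higher value in each sex. Fabp4, a fatty acid carrier also made by endothelium, was at 92.5 FPKM in females against 49.96 FPKM in males (q = 0.00391, authors' deposited table). Adipoq, the fat cell hormone adiponectin, was at 4.14 and 2.67 FPKM (q = 0.380, authors' deposited table). Cidec, a lipid droplet protein, was at 0.605 and 0.635 FPKM, and Cfd, the protease adipsin, at 0.518 and 0.807, neither called. Lep, leptin, was listed at 0 in both sexes, and Retn, resistin, at 0 in males. The summed FPKM of the 8 genes was 98.2 in females and 54.1 in males, nearly all of it Fabp4, which is not particular to fat cells. The part of proximal tubule or fat cells in the Aqp7 difference was not tested.

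Genes that use glycerol were described beside the glycerol channels. Of 6 tested, 2 were called higher in females and none higher in males, and 5 had the higher value in females, with a median log2 ratio of 0.44. Over all tested loci, 1.63% were called higher in females and 0.719% higher in males. Gpd1, which links glycerol phosphate to glycolysis, was at 6.30 FPKM in females against 2.198 FPKM in males, 2.87-fold apart (q = 0.00391, authors' deposited table). Gk, glycerol kinase, was at 9.18 and 5.92 FPKM, 1.55-fold apart (q = 0.0356, authors' deposited table). Mgll, which frees glycerol from monoglycerides, was at 106 and 109 FPKM, and the lipase Pnpla2 at 17.1 and 15.5, neither called. The proximal tubule also expresses Gpd1 and Gk, and its list had more calls in the same direction; its part in these differences was not tested.

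**Figure D3:**
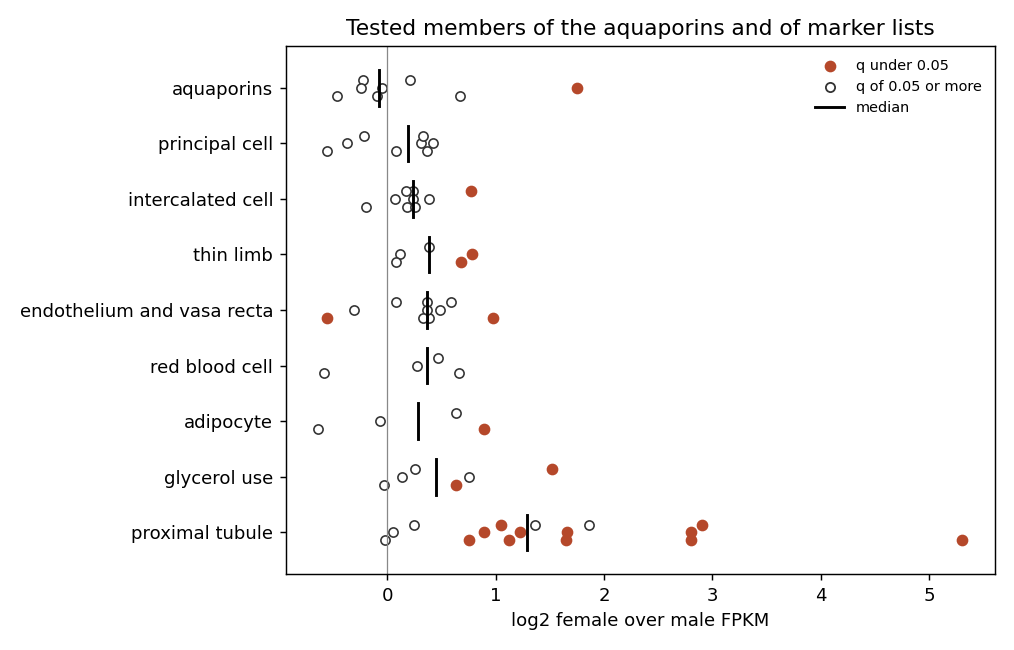
Log2 ratio of female to male FPKM for the tested aquaporins and for tested members of 8 gene lists, 1 point per gene, filled where the authors' q was under 0.05, with a bar at each median. Aqp7 stands at 1.75 apart from the other aquaporins, within the range of the proximal tubule genes, whose median is 1.29.

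Aqp11 (chromosome 1, 168907701 to 168920364), the intracellular member of the proximal tubule, was at 2.999 FPKM in females against 1.88 FPKM in males. The female value was 1.59-fold higher, a log2 ratio of 0.67, but the locus was not called (p = 0.0628, q = 0.572 in the authors' deposited table). At 1 to 5 FPKM the smallest called fold was 1.58, close to that of Aqp11. Aqp5, the gland channel, was at 1.48 FPKM in females against 1.54 FPKM in males, 1.04-fold apart (q = 0.999, authors' deposited table). Its log2 ratio of -0.05 has no stable sign, since it became 0.01 when each sex was scaled to its summed FPKM. Aqp7, Aqp11 and Aqp5 were ordered in that way in females, while in males the order was Aqp11, Aqp5, Aqp7.

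Aqp8 and Aqp9 were near the floor of the data. Aqp8 (chromosome 1, 200483631 to 200489429) was at 0.0126 FPKM in females against 0.124 FPKM in males. Aqp9 (chromosome 8, 75483005 to 75523420) was at 0.0109 FPKM in females against 0.0575 FPKM in males. The authors marked both as not tested, and no fold is read from such values, although the authors' second table of loci at least 1.5-fold apart lists both as lower in females. That table holds 4 of the 10 genes, the other two being Aqp7 and Aqp11. Of the family members outside the 10, Mip was listed at 0 in both sexes and Aqp12a was under 0.1 FPKM in both, neither tested.

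**Figure D4:**
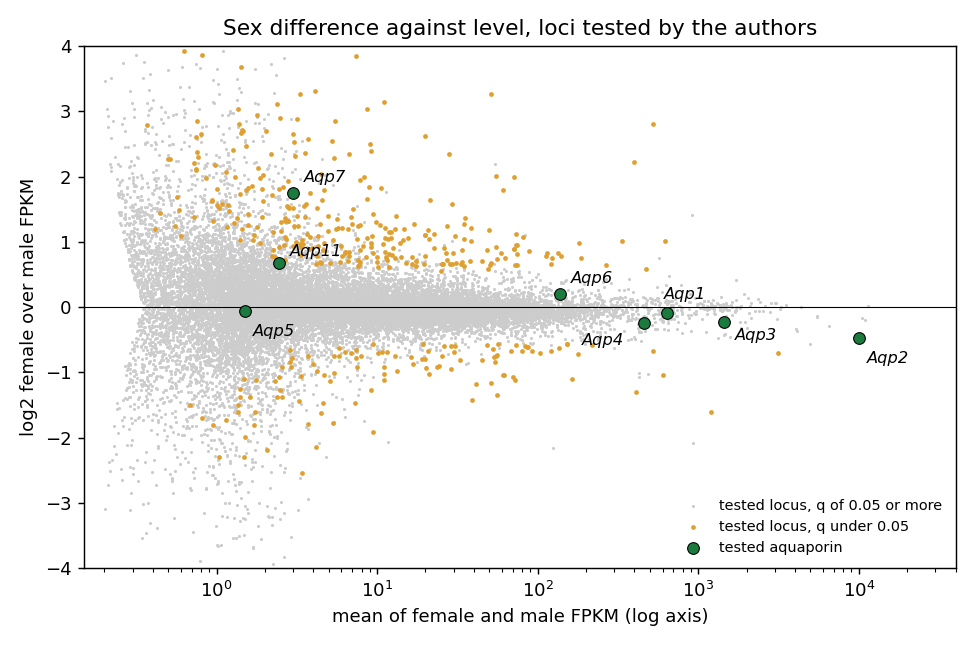
Log2 ratio of female to male FPKM against mean FPKM (log axis) for loci tested by the authors with values above 0 in both sexes (grey, orange where q was under 0.05) and for the 8 tested aquaporins (green); 52 loci beyond 4 in either direction are not drawn. Aqp7 lies among the orange points at 3.01 FPKM, while Aqp1, Aqp3, Aqp4 and Aqp6, within 0.25 of 0, and Aqp2, at -0.47, are uncalled at high level.

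Upstream of Aqp2, vasopressin and cAMP signalling had 1 of 13 tested genes called. This was Avpr1a, the V1a vasopressin receptor, which signals through calcium and not through cAMP, at 16.4 FPKM in females against 8.75 FPKM in males, 1.88-fold apart (q = 0.00391, authors' deposited table). The locus of Avpr2, the V2 receptor, which the table joins with another symbol, was at 245 FPKM in females against 289 FPKM in males, 1.18-fold apart (q = 0.865, authors' deposited table). Gnas, the stimulatory G protein, was at 1079 and 1099 FPKM. The median log2 ratio of the 13 was -0.03, and 0.03 when each sex was scaled to its summed FPKM, so the list has no stable direction.

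Of 29 tested genes of Aqp2 trafficking and turnover, 1 was called, and 20 had the higher value in males with a median log2 ratio of -0.05; scaled to the summed FPKM of each sex, 13 did, and the median was 0.01. The called one was a locus joining Rhbdl1 and Stub1, at 653 FPKM in females against 139 FPKM in males (q = 0.00391, authors' deposited table). Stub1 encodes a ubiquitin ligase that acts on Aqp2, but the value cannot be divided between the joined genes. The locus joining Gpx1 and Rhoa was at 1233 and 1275 FPKM, which again cannot be divided; Rhoa is a small GTPase that controls the actin barrier to Aqp2 vesicles. Mal, which binds Aqp2 at the apical membrane, was at 693 and 650 FPKM. Neither locus was called.

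Of 20 tested transcription factors of the collecting duct, 1 was called, and 12 had the higher value in females with a median log2 ratio of 0.10. Fos, an immediate early gene whose product belongs to AP-1, was at 7.01 FPKM in females against 15.2 FPKM in males, 2.17-fold apart (q = 0.00391, authors' deposited table). Hoxb7, a marker of the ureteric bud lineage, was at 127 and 151 FPKM, and Elf3, an epithelial factor of the ETS family, at 123 and 115, neither called. Each of these 3 lists thus held 1 called gene, against 2.34% called among all tested loci.

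For each abundant aquaporin the 3 loci closest in both values were found. Likeness was the larger of the absolute log2 differences in female and in male FPKM, over those 2 values alone. For Aqp2 the closest were Rpl41 (0.23), Tmsb4x (0.26) and CYTB (0.44), for Aqp3 Pkm (0.10), B2m (0.10) and Rps27a (0.11), and for Aqp1 Rpl31 (0.05), Car2 (0.06) and OST4 (0.07). For Aqp4 they were Aes (0.03), Isyna1 (0.03) and Rtn4 (0.05), and for Aqp6 Ninj1 (0.01), Gpr116 (0.04) and the locus of Ccdc142 and Mrpl53 (0.06). None of these 15 loci was called, and with 2 values such nearness says only that levels and ratios were alike.

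Markers of other regions were present in the pools of both sexes. The thick limb gene Umod stood at 830 FPKM in females against 904 FPKM in males, and Slc12a1, the sodium transporter there, at 231 and 199. Of 7 tested thick limb and distal tubule markers 1 was called (Egf, higher in females, at 7.62 against 4.42 FPKM), with a median log2 ratio of -0.06. Of 9 tested urothelial markers all had the higher value in females and 4 were called higher there, with a median log2 ratio of 0.97. Of all tested loci, 1.63% were called higher in females. The uroplakins Upk1b and Upk2 were 2.18-fold and 2.37-fold, the keratin Krt15 1.98-fold and the locus of Krt5 and Krt73 3.09-fold higher in females. Psca was at 945 and 826 FPKM and Upk1a at 14.5 and 8.89, neither called. None of 7 tested leukocyte markers was called, and 6 had the higher value in females. Lyz2, lysozyme, was at 303 and 226 FPKM and Cd14, a receptor for bacterial endotoxin, at 15.3 and 16.5, while Mpo was listed at 0 in both sexes. Of 2 tested podocyte genes 1, Podxl, which endothelium also makes, was called higher in females, at 29.7 against 20.3 FPKM.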

How the data were processed

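Total RNA of 4 pooled libraries was sequenced from both ends after a stranded total RNA kit, per the labels' protocols. Build rn5 and the tools TopHat2 2.1.1, Cufflinks 2.2.1, StringTie, FastQC and cutadapt are listed, per the submitters' processing notes, with no role for any. Use of strand is not given in the sources used here. Values per sex are taken as FPKM that the authors deposited: their layout, per the file headers, is that of Cuffdiff, and the values are neither whole nor summed like TPM. The p-value and q-value were deposited by the authors and copied; q equals a Benjamini-Hochberg adjustment over tested loci to within 5.26e-07. The log2 fold and test statistic deposited by the authors, handled as a score, are male over female; log2 ratios here were recomputed as female over male without pseudocount (largest gap 4.19e-05). Read pairs and mapping rate come from the authors' deposited table of reads.

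Members were matched by symbol; each had a single row. Members and lists were chosen with earlier results of these data known. Named list genes were those called (at most 6) and the 2 of highest mean; Slc5a2, Miox, Pck1, Cidec, Cfd, Lep, Retn, Mpo, Slc14a1, Cdh5, Mip and Aqp12a were named after their values were seen, and 1 gene that the rule selects is not reported here; likeness was computed for members of mean FPKM of at least 10, with 3 loci each. With 1 value per sex no test of differences was run here, and lists are described by counts and medians. The planned fits per pool could not be run. Overlapping genes cannot be separated where strand was not used. Promoters are from RefSeq, GRCr8. Alternatives were pseudocounts of 0.1 and 1, 3 scalings, summed rows, other q thresholds and filters on level. Python 3.11.15, pandas 2.3.3 and numpy 2.4.6 were used, and the adjustment was tested on simulated data.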

Additional observations from a re-analysis of the deposited data

How the results depend on the processing

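Under the pseudocounts and scalings tried, the log2 ratio of Aqp7 went from 1.24 (pseudocount 1) to 1.81. Its sign could not change under these settings. A pseudocount added to both sexes keeps the sign, and the scalings shift all loci alike, the largest by a log2 of -0.06. Each member had a single row, so summing rows changed nothing. It stayed the one called aquaporin at q under 0.01, at q under 0.1 and with p adjusted again over loci averaging 1 FPKM or more. With p adjusted over loci averaging 5 FPKM or more, the count of called aquaporins was 0, because Aqp7, at a mean of 3.01 FPKM, is then not tested. Aqp2 (-0.47 to -0.41), Aqp3 (-0.22 to -0.16), Aqp4 (-0.25 to -0.19), Aqp1 (-0.09 to -0.03), Aqp6 (0.20 to 0.26) and Aqp11 (0.47 to 0.73) kept their sign throughout. Aqp5 turned from -0.05 to 0.0059 when each sex was scaled to its summed FPKM. The untested Aqp8 went from -3.30 to -0.99 with a pseudocount of 0.1 and to -0.15 with 1, and Aqp9 from -2.40 to -0.51 and -0.065, as both lie below the pseudocounts or close to them. No paired analysis was possible because the deposited values join both pools of a sex, and for the same reason no pool could be left out in turn. Without counts, depth sets no interval on any FPKM.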
